A study of Mus musculus with 8 samples.

Results

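The AP-1 genes are the 7 Jun and Fos family members Jun, Junb, Jund, Fos, Fosb, Fosl1 and Fosl2. They were taken by name from the 21887 protein-coding genes of a RefSeq table of the mouse build mm10, and each gene was read over its span with 5 kb added on both sides. Peaks at these genes were counted in 8 libraries of Treg, regulatory CD4 T cells that depend on Foxp3 and hold immune responses in check, from C57BL/6 mice aged 8 to 12 weeks. Accessible chromatin was mapped by ATAC-seq, in which a transposase inserts adapters where DNA is open, in tumour Treg (1 library) and spleen Treg (1 library) of the genotype JMJD1CWT. Dimethylated lysine 9 of histone H3 (H3K9me2) was mapped by CUT&RUN, in which an antibody guides a nuclease to the mark, in tumour Treg of the genotypes JMJD1CWT (WT, 3 libraries) and JMJD1CTregcKO (cKO, 3 libraries). The cKO label denotes a Treg-restricted conditional knockout of Jmjd1c, the gene of a demethylase of the KDM3 family. The Cre line, the tumour model and whether each library came from 1 animal or from several are not given in the sources used here, and no value here measures Jmjd1c loss.

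AP-1 is a dimer of a Jun protein with another Jun or with a Fos protein, held together by leucine zippers. It binds the TPA response element (TRE) and, less tightly, the cyclic AMP response element (CRE). Jun and Fos are immediate early genes, switched on within minutes of a stimulus by MAP kinases, and in T cells AP-1 acts with NFAT downstream of the antigen receptor. H3K9me2 is a mark of silent chromatin, and KDM3 demethylases remove it.

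In short, 6 of the 7 genes had an ATAC peak in tumour Treg, against 59.9% of all protein-coding genes, and 5 in spleen Treg, against 47.1%. Jund had no listed ATAC peak in either tissue and no listed H3K9me2 peak in any library. Jun and Junb carried H3K9me2 peaks in each of the 3 cKO libraries but in none of the 3 WT libraries, as did 1.47% of all genes, while Fos carried none in any. At Junb 1 of the cKO values rests on 20 bp at the edge of the span, and the pattern was gone at both genes with peak lists of equal length. Limma called 0 of the 4 AP-1 genes it could test and 0 of all 19016 genes tested after adjustment, with 1591 of the latter at an unadjusted p below 0.05.

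The members lie on 6 chromosomes and are short. The Jun genes span 3187 bp (Jun, chr4:95049036-95052222), 1840 bp (Junb, chr8:84976909-84978748) and 2878 bp (Jund, chr8:70697739-70700616). Fos spans 3385 bp (chr12:85473890-85477274), Fosb 7423 bp (chr7:19302696-19310118), Fosl1 8241 bp (chr19:5447698-5455938) and Fosl2 21369 bp (chr5:32136472-32157840). With the flanks they cover 118 kb, from 11.8 kb at Junb to 31.4 kb at Fosl2. Their flanks reach into other genes, and a peak there need not belong to the AP-1 gene. These are the long noncoding gene Junos beside Jun, Prdx2 beside Junb, Iqcn beside Jund, the long noncoding gene Gm26802 beside Fosb, and Fibp beside Fosl1. Ccdc85b (chr19:5453163-5457563) overlaps the higher-coordinate end of the Fosl1 span itself and reaches into its flank. Exon and intron boundaries were not used here.

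The 250 bases upstream of 4 start sites are shown because they differ in the ATAC peaks that cover them. Jun and Fos have a peak there in both tissues, Fosb in tumour alone, and Jund in neither. The sequences are from RefSeq (GRCm38.p6, the assembly of mm10), are written 5′ to 3′ on the strand of the gene and end at the base before the start site. Capitals mark the letters TGACATCA, a TRE-like site, and TGACG, the core shared by CRE sites. Jun is on the minus strand at chr4:95052223-95052472, Fos on the plus strand at chr12:85473640-85473889, Fosb on the minus strand at chr7:19310046-19310295 and Jund on the plus strand at chr8:70697489-70697738.
Jun: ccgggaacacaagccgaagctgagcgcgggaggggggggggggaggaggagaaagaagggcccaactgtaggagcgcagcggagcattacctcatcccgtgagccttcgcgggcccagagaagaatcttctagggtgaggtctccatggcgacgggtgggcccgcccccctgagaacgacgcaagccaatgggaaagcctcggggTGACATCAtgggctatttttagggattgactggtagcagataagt
Fos: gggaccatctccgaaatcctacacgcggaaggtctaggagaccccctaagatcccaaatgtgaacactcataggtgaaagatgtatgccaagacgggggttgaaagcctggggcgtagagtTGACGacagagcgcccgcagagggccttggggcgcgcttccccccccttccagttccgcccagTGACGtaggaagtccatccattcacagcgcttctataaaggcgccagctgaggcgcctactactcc
Fosb: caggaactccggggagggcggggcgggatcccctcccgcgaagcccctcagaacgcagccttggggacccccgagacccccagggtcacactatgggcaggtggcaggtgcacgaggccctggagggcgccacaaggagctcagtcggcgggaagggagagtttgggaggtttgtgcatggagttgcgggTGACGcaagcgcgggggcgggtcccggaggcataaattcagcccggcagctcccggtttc
Jund: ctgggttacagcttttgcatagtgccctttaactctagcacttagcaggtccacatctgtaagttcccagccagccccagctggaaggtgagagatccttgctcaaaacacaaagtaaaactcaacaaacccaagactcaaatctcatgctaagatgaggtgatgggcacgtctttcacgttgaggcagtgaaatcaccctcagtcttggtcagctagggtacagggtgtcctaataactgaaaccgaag

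Letters were searched on both strands of the window from 250 bases before to 50 after the start site, which the table gives for 6 of the 7 genes. The full TRE, TGACTCA, was in 0 of the 6 windows and in 4.66% of the 21263 windows in the table, and the full CRE, TGACGTCA, was in 0 of 6 and in 2.23% of all. The TRE-like TGACATCA was in the Jun window alone, 45 to 38 bases before the start, inside both the tumour and the spleen peak, and 3.66% of all windows hold it. The short core TGACG, which every TGACGTCA also contains, was in 23.6% of all windows and in those of Fos, Fosb and Junb. In Fos it begins 129 and 66 bases before the start, inside both peaks. In Fosb it begins 60 bases before the start, inside the tumour peak, and in Junb 106 bases before, in no peak.

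General promoter letters differed among the members too. TATAAA was in the windows of Fos, 33 bases before the start, and of Junb, from the start site itself, against 12.6% of all windows. CCAAT was in those of Jun and Junb against 38.2%, and GGGCGG, the GC box, in those of Jun, Fos, Fosb and Fosl2 against 46.2%. The Jun window also holds a MEF2 site, beginning 33 bases before the start, which 0.489% of all windows share, while the CArG box that serum response factor binds was in 0 of 6 windows and in 1.52% of all. Such matches describe these letters in these windows and no more. The Jund window stood lowest of the 6 in GC content, at 46.7% with 3 CpG, against a median of 56.3% and 13 CpG over all windows. The others ranged from 58.7% in Fos to 68.3% in Fosb, and Fosl2 had the most CpG, 32.

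Before the members, the libraries themselves differed. The tumour ATAC list holds 27655 peaks of 322 bp from 11293674 tags, and the spleen list 13089 peaks of 869 bp from 11068821 tags, with 11.03% and 4.77% of tags in peaks. Tags in a peak are given per 10000000 tags of the library, as the authors scaled them. Because of the widths they were read only within a list, and with 1 library per tissue no difference between tissues was tested. A weaker peak and fewer cells that carry it cannot be told apart in bulk ATAC data. The ATAC call also required 4-fold over the surrounding 10 kb, so a place with no listed peak need not be closed. Among the peaks at AP-1 genes this fold ran from 4.08 (Fos, spleen) to 30.57 (Fosl1, spleen). Of 6 Treg and T cell markers, 5 had a peak in each tissue, Foxp3 and Il2ra with 2 each in both, and Ctla4 had none. Of 4 myeloid markers, Itgam and Cd14 had peaks in tumour (57.1 tags summed) and none had one in spleen (0 tags), while Lyz2 and Csf1r had none in either. CD8 T and NK cell markers had none (0 of 4 in both), B cell markers 2 of 4 in both, with Ms4a1 among those without, the tumour and epithelial markers 2 of 5 in tumour and 1 of 5 in spleen without Epcam, Krt8 and Tyr, and the stromal and endothelial markers 2 and 3 of 3. What the cells behind the myeloid and other markers contribute to the tumour peaks at AP-1 genes was not tested. With the tumour list shortened to the length of the spleen list, the AP-1 genes held 10 tumour peaks in place of 13, still at 6 genes, and 5 in place of 8 that touch no spleen peak.

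An ATAC peak in tumour Treg was present at 6 of the 7 AP-1 genes, against 59.9% of all protein-coding genes, and at 51.0% of the 12243 genes whose extended span is no longer than that of Fosl2. In spleen 5 of 7 had a peak, against 47.1% of all genes. The members held 13 tumour and 5 spleen peaks, a median of 2 and 1 per gene against 1 and 0 over all genes. Per 10 kb of extended span these are 1.1 and 0.423 peaks, against a mean of 0.439 and 0.256 over the genes with short spans. All 5 spleen peaks touched a tumour peak. Of the 13 tumour peaks, 8 touched no spleen peak, and these lay at 5 members, against 35.3% of all genes and 26.9% of those with short spans that have such a peak. Across the lists as a whole, 40.3% of tumour peaks touched a spleen peak and 85.0% of spleen peaks a tumour peak.

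**Figure D1:**
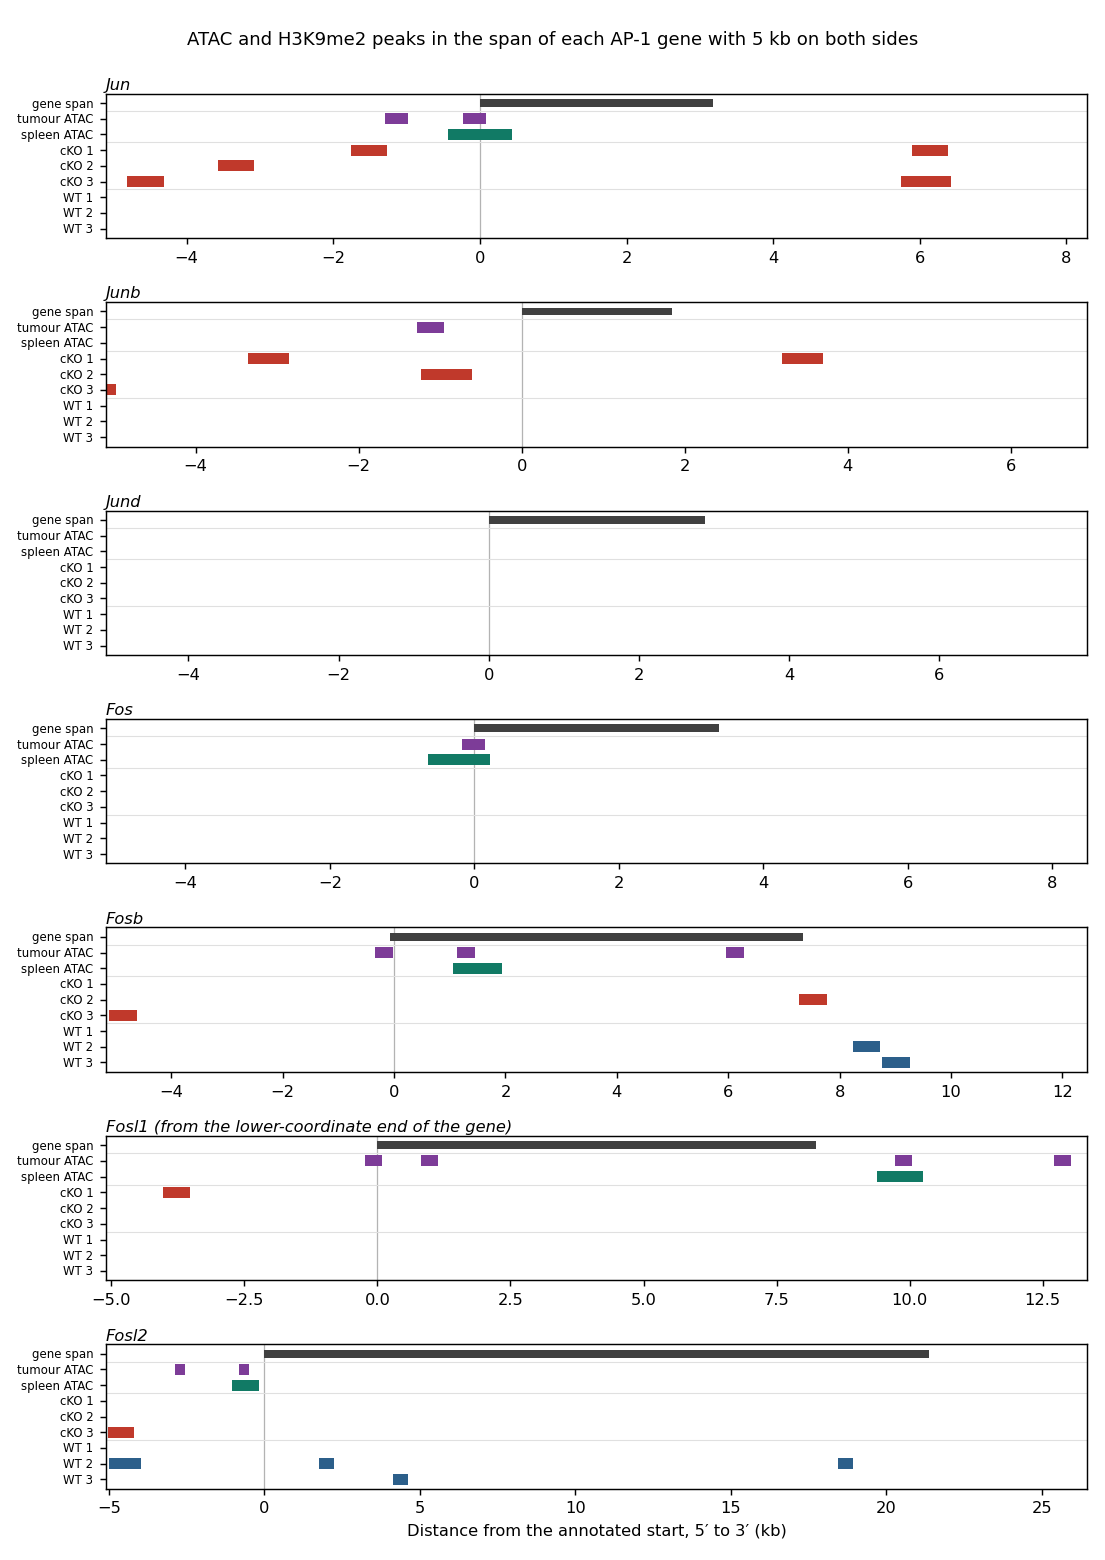
Positions of ATAC peaks (purple, tumour; green, spleen) and H3K9me2 peaks (red, cKO; blue, WT) at the 7 AP-1 genes, 1 row per library; the x axis is the distance in kb from the annotated start, 5′ to 3′, and for Fosl1 from the lower-coordinate end. The Jund panel is empty, Jun and Junb have red bars in all 3 cKO rows and no blue bar, and most red and blue bars lie outside the gene span (grey).

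Jun encodes c-Jun, a Jun protein of the AP-1 dimer. Its strongest tumour peak had 143 tags and was centred 74 bp before the start, among the top 3.11% of tumour peaks by tags. The spleen peak there had 129.2 tags, centred 1 bp past the start, among the top 1.86% of spleen peaks. A further tumour peak of 79.7 tags lay 1.14 kb upstream, inside Junos, and touched no spleen peak.

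Junb and Jund encode the other Jun proteins, which can counter c-Jun in some settings. Junb had a single tumour peak, 1.12 kb upstream of its start, with 130.2 tags, among the top 4.04%. It touched no spleen peak, and the nearest spleen peak was 7.08 kb from the gene. The fold of the Junb peak over the surrounding 10 kb was 4.11, just above the 4 that the call required. Jund had no listed peak in its extended span in either tissue, which does not show that it is closed. The nearest one was 24.3 kb away in tumour (82.3 tags) and 24.1 kb away in spleen (50.6 tags), in both lists at the neighbouring gene Lsm4.

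Fos encodes c-Fos, the immediate early partner of c-Jun. Its tumour peak was centred 8 bp before the start with 72.6 tags, and its spleen peak had 33.9 tags. Both covered the start site, and they ranked in the top 14.2% and 35.3% of their lists. No other peak was in the Fos span.

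Fosb, whose splice form ΔFosB lacks the transactivation end, had 3 weaker tumour peaks inside the gene or at its start. The strongest, with 41.6 tags, lay 1.29 kb into the gene and touched the spleen peak of 49.7 tags. Peaks of 31.9 tags at the start (178 bp before it) and of 24.3 tags, 6.11 kb into the gene, were in the tumour list alone. The last of these equals the median of all tumour peaks, 24.3 tags, so Fosb ranged from the middle of the list to its top 30.4%.

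Fosl1 encodes Fra-1 and Fosl2 encodes Fra-2, Fos proteins that lack a strong transactivation domain. Fosl1 had the most tumour peaks, 4, with 29.7, 26.6, 19.9 and 12.8 tags. The 29.7-tag peak, which touches the spleen peak of 28.9 tags, overlaps the edge of Ccdc85b, and the 19.9-tag peak the edge of Fibp. Only those of 26.6 and 12.8 tags overlap the Fosl1 span itself, the first across its lower-coordinate edge. Both are absent from the spleen list. Fosl2 had a tumour peak of 132.8 tags centred 662 bp upstream, in the top 3.84%, and another of 65.5 tags 2.73 kb upstream that touched no spleen peak. Its spleen peak, 619 bp upstream, had 17.6 tags and ranked in the top 76.9% of its list. Fosl2 is thus near the top of the tumour list and in the lower part of the spleen list, although ranks from lists of unequal length show no change.

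**Figure D2:**
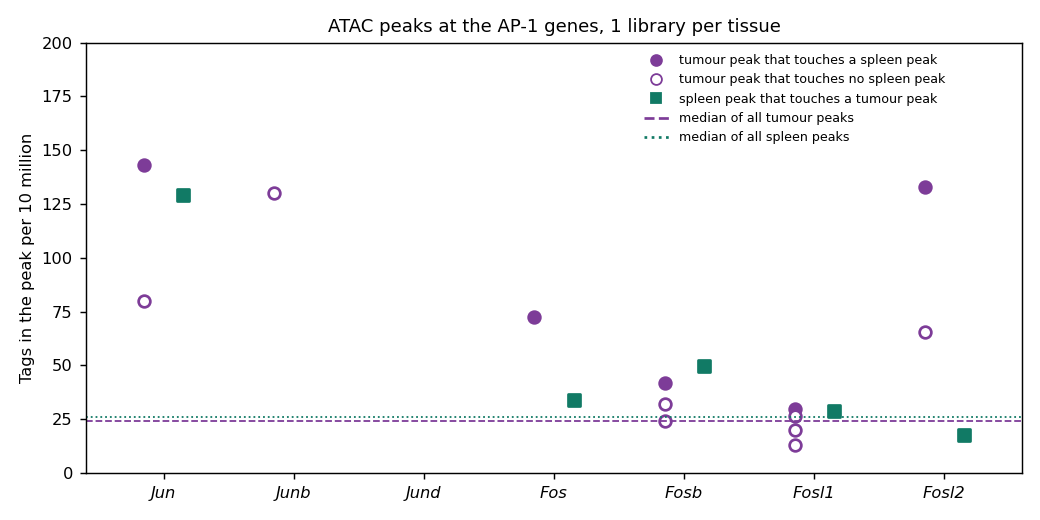
Tags per 10000000 (y axis) in each ATAC peak of the 7 AP-1 genes (x axis), with 1 library per tissue; circles are tumour peaks (open where no spleen peak is touched), squares are spleen peaks, and the lines are the medians of all peaks, 24.3 in tumour and 26.2 in spleen. Jun, Junb and Fosl2 hold the highest tumour peaks, and Jund has no point. Tumour and spleen values are not comparable because the peak widths differ.

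In the order of their highest tumour peak the genes ran Jun (143), Fosl2 (132.8), Junb (130.2), Fos (72.6), Fosb (41.6) and Fosl1 (29.7), and with no replicate the spread between neighbours is unknown. Peaks touched the promoter window of Jun, Fos and Fosb in tumour (3 of 6) against 42.5% of the 17492 genes with a window. In spleen they touched those of Jun, Fos and Fosl2 (3 of 6) against 34.3%. At Fosl2 the tumour peak ends 501 bp and the wider spleen peak 185 bp before the gene.

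For H3K9me2 the value of a gene is the percent of its extended span that peaks cover, called by the authors in each library. A value of 0 says that no listed peak was there, not that the mark was absent. The 6 libraries had 24774509 to 30313851 tags. Where nothing says that libraries came from separate animals, p-values measure the spread between these libraries, which may be technical. The library names in the file headers have no prefix that cKO and WT share. What these prefixes stand for is not stated in the labels, and neither is the preparation batch. A batch that followed genotype could not be told apart from it. The names of cKO replicates 1 and 3 carry the same knockout number, and whether they share an animal is not stated in the labels. If they do, n = 3 overstates the cKO group. Without replicate 1 the Jun difference given next was 6.4 points, and without replicate 3 it was 5.69 points, with limma adjusted p-values of 0.411 and 0.311.

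At Jun, peaks covered 7.58%, 3.79% and 9.02% of the extended span in cKO replicates 1, 2 and 3, and 0% in each of the 3 WT libraries. All cKO values were above all WT values. The means were 6.8% ± 2.7 and 0% (SD, n = 3 each), with a limma p of 0.00403 before and 0.519 after adjustment over 19016 tested genes. At Junb the cKO values were 8.45%, 5.37% and 0.169%, against 0% in all 3 WT libraries. The groups did not overlap here either, but the value of cKO replicate 3 comes from 20 bp of a peak that crosses the edge of the span. The means were 4.66% ± 4.18 and 0% (SD, n = 3 each), with a limma p of 0.0533 before and 0.568 after adjustment.

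Jun and Junb were thus the 2 of 7 members with all cKO libraries above all WT libraries, as were 11.4% of all genes, and 0 of 7 had them all below, as had 1.17%. A peak in each cKO library and in 0 of 3 WT libraries, as at both genes, was present at 1.47% of all genes and at 2.08% of those with short spans. At an unadjusted p below 0.05 with higher cKO, limma called 1 of the 4 tested members, Jun, and 7.43% of the 19016 tested genes. After Benjamini-Hochberg adjustment limma called 0 genes (0.0%) in either direction, with 1591 at an unadjusted p below 0.05. The lowest adjusted p of any gene was 0.519. The adjustment gives this same value to a run of genes that includes Jun, so it does not make Jun the top gene.

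The Jun and Junb values moved with the peak list used. With lists of equal length Jun was 3.01 percentage points higher in cKO (limma adjusted p = 0.967) and its groups overlapped, and the Junb difference was 0.0563 points. Among the peaks above each list's median score both genes had 0 in all libraries, and within the gene spans alone both were also at 0. Leaving out cKO replicate 1 brought the Junb difference to 2.77 points.

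Fosb had 0%, 2.87% and 2.59% in cKO and 0%, 2.87% and 2.87% in WT, so both groups held a library at 0 and their values overlapped. The means were 1.82% ± 1.58 and 1.91% ± 1.66 (SD, n = 3 each), with a limma adjusted p of 0.995. Fosl2 had 0%, 0% and 2.53% in cKO and 0%, 6.4% and 1.59% in WT, the WT group holding the highest library. Its means were 0.844% ± 1.46 and 2.67% ± 3.33 (SD, n = 3 each), with a limma adjusted p of 0.724, and without WT replicate 2 the difference of -1.82 points became 0.0468. Fosl1 had 2.74% in cKO replicate 1 and 0% in the other 5 libraries, a mean under the 1% needed for a test. Jund and Fos were at 0% in all 6 and were not tested.

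**Figure D3:**
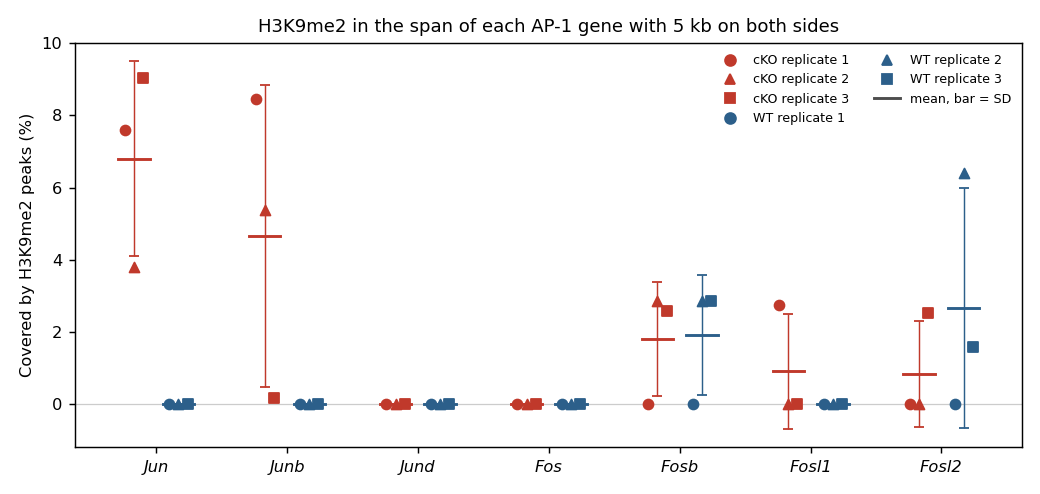
Percent of the extended span covered by H3K9me2 peaks (y axis) at each AP-1 gene (x axis) in the 3 cKO (red) and 3 WT (blue) libraries; lines and bars are the mean and SD over libraries. All WT points are at 0 for Jun and Junb, the groups overlap for Fosb and Fosl2, and Jund and Fos are at 0 throughout.

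In cKO the order of the means was Jun, Junb, Fosb, Fosl1, Fosl2 and then Fos and Jund at 0, and each neighbouring pair differed by less than the larger SD of the pair. In WT it was Fosl2, then Fosb, then the other 5 at 0. Over the 7 genes the mean coverage of a library was 2.68%, 1.72% and 2.04% in cKO and 0%, 1.32% and 0.638% in WT, or 2.15% ± 0.49 and 0.654% ± 0.662 (SD over libraries, n = 3 each). The mean over all genes was also higher in cKO, at 4.38%, 4.59% and 3.48% against 2.6%, 3.6% and 2.93% in WT for replicates 1, 2 and 3. WT replicate 1, in which the members had no peak at all, also had a peak at fewer genes in general, 54.5% against 65.8 to 76.6% in the other 5 libraries. Without WT replicate 1 the difference in the mean over the members went from 1.49 to 1.17 points. The median difference over the 7 members was 0 points, against 1.0 over all genes.

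These values rest on 19 H3K9me2 peaks, 13 in cKO and 6 in WT. By the authors' score 13 of them stood at 5, the lowest score in the lists, 17 at 6 or less, and the highest was 8. Of the 19, 15 were 500 bp long, the size set in the call. The peak of score 8 was at Jun in cKO replicate 3 (689 bp), 6.08 kb past the start and so beyond the far end of the gene. That score equals the median of its list. A peak of cKO replicate 1 of score 5, the library whose name has the same knockout number, touched it. The other 3 Jun peaks lay upstream, 1.51 kb (cKO replicate 1), 3.33 kb (cKO replicate 2) and 4.56 kb (cKO replicate 3) from the start, all inside Junos and touching one another nowhere.

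The Junb peaks lay 3.11 kb upstream and 3.44 kb downstream of the start in cKO replicate 1, 0.922 kb upstream in cKO replicate 2 and 5.23 kb upstream in cKO replicate 3, with no overlap between libraries. At Fosl2 the peaks of cKO replicate 3 and WT replicate 2, 4.62 and 4.48 kb upstream, touched each other. In all, 4 of the 19 were touched by a peak of another library, these 2 and the 2 beyond Jun. At Fosb the peaks lay at 4 separate places, from 4.87 kb upstream (cKO replicate 3) to 9.02 kb past the start (WT replicate 3, at the edge of Gm26802).

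Inside the gene span proper, 5 of the 7 members had no H3K9me2 peak in any library, all but Fosb and Fosl2, against 19.1% of all genes. Among the 7037 genes no longer than Fosl1 the share was 48.9%. Of the 19 peaks, 2 touched a tumour ATAC peak. One was the peak of cKO replicate 1 on the upstream ATAC peak of Jun, the other the peak of cKO replicate 2 on the single ATAC peak of Junb, and neither ATAC peak touches a spleen peak. In whole libraries 1.07 to 1.94% of H3K9me2 peaks touched a tumour ATAC peak, but these shares are not like for like. Whole libraries cover the genome, and the AP-1 spans hold 1.1 tumour ATAC peaks per 10 kb against a mean of 0.205 over all genes. Jund was 1 of 1302 genes, 5.95% of all, with neither ATAC nor H3K9me2 peaks in the extended span. That share is not matched for length, and a short span is more easily empty.

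With 50 kb on both sides, a width chosen after seeing the data, most members gained values in every library. Jun had 6.66%, 9.73% and 13% in cKO and 4.45%, 6.73% and 2.97% in WT, and cKO replicate 1 was just below WT replicate 2. The means were 9.78% ± 3.15 and 4.72% ± 1.89 (SD, n = 3 each), with a limma p of 0.00405 before and 0.173 after adjustment, and its mean over the 6 libraries was at the 94.0th percentile of all genes. Junb had 1.47%, 5.85% and 3.17% against 0%, 1.47% and 0.982%, where the lowest cKO and the highest WT value were the same, with a limma p of 0.0138 before and 0.23 after adjustment. Jund remained lowest, between 0% and 0.712% and at the 3.29th percentile.

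At this width Fos ranged from 1.14% to 4.62%, Fosb from 0% to 2.11%, Fosl1 from 0.462% to 2.91% and Fosl2 from 0.824% to 4.01%, with overlapping groups and limma adjusted p-values of 0.803, 0.985, 0.579 and 0.602. All cKO libraries were above all WT libraries at 0 of 7 members, against 20.4% of all genes. Jun and Junb were the 2 members at an unadjusted limma p below 0.05 with higher cKO, against 15.3% of the 20834 genes tested. The lowest adjusted p of any gene was 0.0696.

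**Figure D4:**
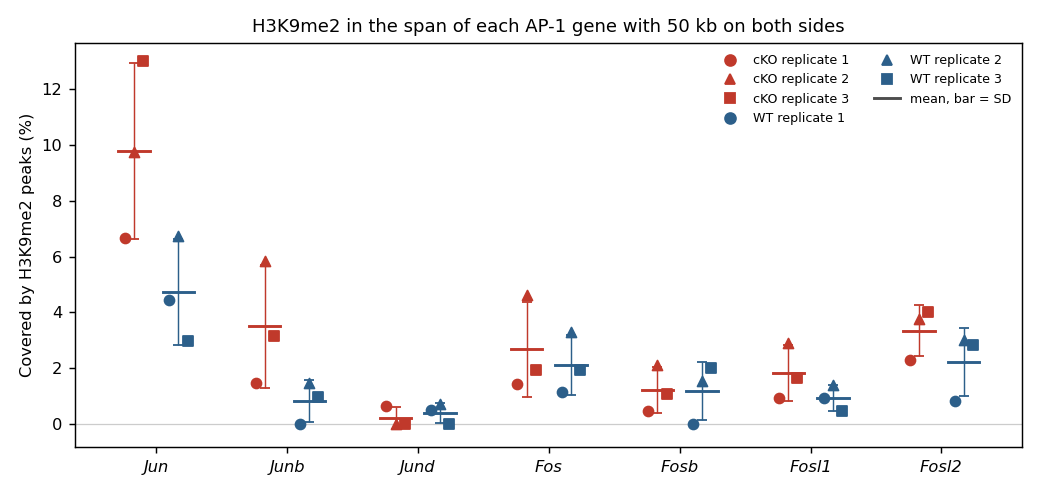
Percent covered by H3K9me2 peaks (y axis) when 50 kb is added on both sides of each AP-1 gene (x axis), in the 3 cKO (red) and 3 WT (blue) libraries; lines and bars are the mean and SD. Jun stands highest in both groups, Jund is below 1% in all 6 libraries, and the groups touch or overlap at every gene.

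Fosb was the one member with H3K9me2 coverage in at least 4 of the 6 libraries, so it alone was set against other genes. The genes most like it were Entpd2 (chr2:25395874-25401323) and Gm5797 (chr14:7323988-7332395), both with Pearson r = 0.997 over the 6 libraries. Each had 0% in cKO replicate 1 and WT replicate 1 and 2.72 to 3.29% in the others, and 17 of 20428 genes reached r of 0.99. Such values mostly record a single peak of about the same length present or absent in a library.

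The partners that dimerise with Jun or Fos proteins, or compete with them, form a list of 14. Of these genes (Batf, Jdp2, Atf and Maf families) 13 had a tumour ATAC peak, 10 a spleen peak and 8 a tumour peak that touches no spleen peak, where the shares of all genes are 59.9%, 47.1% and 35.3%. Here and for the lists below these shares are not matched for gene length, and a longer span has more room for a peak. Batf, which pairs with Jun proteins at sites shared with IRF4, had 6 tumour and 2 spleen peaks, 4 of the tumour ones touching none in spleen. Jdp2, a repressor that binds Jun, had 6 and 1 with 5 such peaks, and Maff, a small Maf protein, 4 and 1 with 3 such peaks. For H3K9me2, 13 were tested and 0 passed limma. Atf1, a CREB family factor, was the 1 gene with all cKO libraries (3.25%, 5.95% and 2.62%) above all WT libraries (0%, 0% and 1.15%), as at 11.4% of all genes, with a limma adjusted p of 0.568. The median difference of the 14 was 0.544 points.

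Among 20 genes that carry MAP kinase signals to AP-1 or limit them, 20 had a tumour peak (59.9% of all genes), 17 a spleen peak (47.1%) and 14 a tumour peak that touches no spleen peak (35.3%). Mapk14, encoding p38α, had 5 tumour and 2 spleen peaks, and Map2k6, a kinase that activates p38, had 4 and 1. For H3K9me2, 18 were tested and 0 passed limma, with a median difference of 0.86 points over the 20. Map2k4, a kinase that activates JNK, had 6.01%, 7.18% and 4.26% in cKO and 3.97%, 3.95% and 2.5% in WT. It was the 1 gene of the list whose cKO libraries all lay above WT, as at 11.4% of all genes, and the limma adjusted p was 0.645.

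Of 12 other immediate early genes, 11 had a tumour peak (59.9% of all genes), 8 a spleen peak (47.1%) and 8 a tumour peak that touches no spleen peak (35.3%). Nr4a1, an orphan nuclear receptor induced by antigen receptor signals, had 4 tumour and 3 spleen peaks, Ier5 3 and 1, and Myc 2 and 0. Egr2 resembled Jund, with no listed ATAC peak in either tissue and 0% H3K9me2 in all 6 libraries. For H3K9me2, 9 were tested, 0 passed limma, 0 had groups that did not overlap with cKO higher or lower, and the median difference was 0 points.

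The last list held 12 T cell genes with AP-1 sites known from textbooks. A tumour peak was present at 10 (59.9% of all genes), a spleen peak at 4 (47.1%), and 10 had a tumour peak that touches no spleen peak (35.3%). Tnf had 3 tumour and 2 spleen peaks, Cd69, an early activation marker, 3 and 1, and the cytokine gene Il13 2 and 0, whereas Il3 and Il5 had none in either. For H3K9me2, 11 were tested, 0 passed limma and 0 had groups that did not overlap. The mean was higher in cKO at 11 of the 12, against 65.6% of all genes, and the median difference was 2.28 points. It was also higher at 10 of the 14 partners, 13 of the 20 MAP kinase genes and 5 of the 12 other immediate early genes. Of the T cell genes, Il3, Il4, Il5, Il13 and Csf2 lie close together on chr11 and are not separate places in the genome. At Cd69 the values were 3.63%, 2.77% and 5.54% in cKO and 0%, 2.77% and 0% in WT (limma adjusted p = 0.568). Over all genes the median difference was 1.0 points.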

How the data were processed

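The 6 H3K9me2 and 2 ATAC libraries were grouped by their titles. The build mm10 and the tools Bowtie2 2.4.2, Trim Galore 0.6.6, SAMtools 1.11, Picard, deepTools and HOMER are named, without roles, per the submitters' processing notes. The labels' protocols give an ATAC service for the ATAC samples, beside a CUT&Tag kit for H3K9me2, whereas those of the H3K9me2 samples name a CUT&RUN kit. A shift of ATAC reads for the transposase is not stated in the sources used here. HOMER findPeaks was run by the authors on single libraries with no control, per the file headers: H3K9me2 in histone style (500 bp, tag threshold 5, local p of 0.05), ATAC in factor style. The deposited peak values are a tag signal per 10000000 tags, a score in tags, a fold over the surrounding 10 kb and its p-value. The deposited ATAC files add a focus ratio, a fraction, and the H3K9me2 files a region size in bp (other unit). The deposited H3K9me2 lists hold 24.4 to 43.9% of the peaks that their headers count, so a further, unstated filter was applied. The lowest fold over the surrounding 10 kb was 2.01 in all 6 lists, where the headers required a fold of 0. Coverage thus measures local enrichment, not the amount of the mark.

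From these, peaks were intersected with gene spans (shared means 1 bp or more), and the covered percent was compared with limma 3.58.1 in R 4.3.3 (trend, no block, genes with a mean of 1% or more, Benjamini-Hochberg over all of them, threshold 0.05). The script was tested on simulated data whose shifts were larger than the differences at the AP-1 genes. Whether it finds differences as small as those was not tested. Beyond the members, named genes were, in each list, up to 3 of lowest limma p whose groups do not overlap and up to 3 with the most tumour peaks that touch no spleen peak, and for members covered in 4 or more libraries the 2 genes most correlated. Of the genes this rule names, 1 is not reported here. Egr2, Il3 and Il5 were named after their values were seen. The members, lists and rules were chosen with earlier results of these data known. Alternatives were other flanks, list lengths, scales and filters, a replicate block and each library left out.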

Additional observations from a re-analysis of the deposited data

How the results depend on the processing

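Of 105 alternative values of single AP-1 genes, 0 passed limma's adjusted threshold and 7 reversed. The Jun difference stayed positive in 13 of 15 alternatives and was 0 in the other 2, with adjusted p from 0.173 to 0.967 in the 13 with a test, and that of Junb from 0.23 to 0.749 in 12. The count of genes passing limma, 0, became 1 on the arcsine scale and 12 without the filter on low values, and was 0 to 0 when 1 library was left out. The replicate block left it at 0. To look for pairing, each library's deviations from its group mean over the tested genes were correlated between cKO and WT libraries. These are not correlations of the H3K9me2 profiles themselves. For same-numbered libraries they were 0.0756 (the highest of all pairs), 0.00499 and 0.026, and for differently numbered ones -0.0539 to 0.0264. All lay near 0, and the numbers were not taken to pair the libraries. The 2 members whose groups did not overlap became 0 without flanks, with 50 kb, with lists of equal length and among peaks above the median score, 3 with 10 kb (Jun, Junb and Fosl1, limma adjusted p of 0.481 each), and were 2 to 2 without any 1 library. The mean difference over members, 1.49 points, was -0.282 without flanks, 2.15 with 10 kb, 0.406 with equal lists, 0 among peaks above the median score and 1.17 to 1.83 without 1 library. Fosb reversed to 0.368 without flanks, 0.036 with 50 kb, and to 0.816 without cKO replicate 1 and 0.385 without WT replicate 2 or 3 (range -1.05 to 0.816 over left-out libraries). Fosl2 reversed to 1.13 with 50 kb and 0.0468 without WT replicate 2 (range -3.15 to 0.0468). The cause of these changes was not tested. The ATAC counts of 13 tumour peaks, 5 spleen peaks and 8 without a spleen partner became 7, 3 and 4 without flanks (3 members with a spleen peak) and 55, 23 and 33 with 50 kb, spleen peaks 8 with 10 kb, and those without a partner 5 with the tumour list shortened to the spleen list's length. The H3K9me2 peaks here hold 1.52 to 2.98 tags per 10000000, and the part of depth in these values was not tested.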
